A study of Rattus norvegicus with 6 samples.

Results

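The interleukin 6 family was followed through 10 genes: the ligands Il6, Il11 and Lif, the receptor chains Il6r, Il6st, Lifr, Osmr and Il11ra1, the transcription factor Stat3 and the feedback inhibitor Socs3. They were found by the gene name that the array gives each probe, as 10 of 35010 named genes or unnamed probes, and as 18 of 45598 probes. The cells were rBMSCs, rat bone marrow stromal cells isolated from tibia marrow, plastic-adherent progenitors of osteoblasts, chondrocytes and adipocytes. After 7 days of culture, cells on titanium modified with tantalum (Ta, n = 3) were compared with cells on simple titanium (Ti, n = 3), with no other treatment named. These groups come from the samples' titles and culture labels; the treatment text of the Ti samples names the tantalum-modified surface as well, so the labels are not in full accord. Total RNA of each culture was labelled with Cy3 and hybridised to its own one-colour Agilent array. The series calls the cultures of a group independent experiments, so p-values measure the spread between those cultures, and neither the strain nor the age of the rats is given in the sources used here.

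Some cytokines of this family bind a receptor chain that is particular to the ligand (Il6r for interleukin 6, Il11ra1 for interleukin 11). Others bind a second signalling chain (Lifr for leukaemia inhibitory factor, Osmr for oncostatin M). Nearly all of them signal through gp130, the product of Il6st. gp130 activates Janus kinases, which phosphorylate STAT3, and STAT3 switches on target genes that include Socs3, whose protein binds gp130 and ends the signal. In bone, stromal cells and osteoblasts make interleukin 6 and interleukin 11, and the family acts on both bone-forming and bone-resorbing cells.

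By the scanner software's test of a spot against its surroundings, 62.7% to 65.9% of each array's spots were well above background. The array of Ta replicate 1 was hardly nearer to its own group than to Ti (mean root mean square log2 difference over the 19669 tested genes 0.436 and 0.449), and Ti replicate 2 was the Ti array nearest to Ta (0.544 against 0.619 and 0.634). The differences of Il6, Il11, Socs3 and the receptor chains are therefore given with and without each of them. Values of genes other than the members are from all 6 arrays. Stromal markers were present, with 11 of 12 measured and Lepr well above background on 0 arrays. The mean level of the 11 was between 12.84 and 12.97 on Ta and between 12.59 and 12.66 on Ti (log2 scaled signal). Presence and level in RNA of whole cultures do not give the share of stromal cells. Markers of other marrow cells were present too. The 15 macrophage and monocyte markers were all measured, with a mean level between 9.44 and 10.92 on Ta and between 11.19 and 11.27 on Ti. Of 9 T and B lymphocyte markers 6 were not measured, among them Cd3e and Cd79a. The 3 measured, named after their values were seen, were Cd3d, Cd4 and Cd8a. They differed by 0.36, -0.91 and -2.45, and 0 passed the test. Of 9 mast cell and megakaryocyte markers 8 were tested, and the mast cell and basophil genes Kit, Cpa3, Cma1 and Mcpt8 fell on Ta while the platelet gene Pf4 rose. The other platelet and megakaryocyte genes listed, Itga2b and Gp9, were named after their values were seen. They differed by -0.23 and 0.35, with overlapping groups, and did not pass (limma adjusted p = 0.32 and 0.528). The list therefore shows no common direction for platelet and megakaryocyte genes. Of 6 adipocyte markers 2 were tested, and Lpl, lipoprotein lipase, fell (difference -2.46). The other, Fabp4, named after its value was seen, differed by -2.53, all Ta arrays below all Ti arrays, and did not pass. Adipoq, Plin1, Cidec and Lep were not tested. The part of these cells in the members' values was not tested.

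Sequences of 5 probes help to read the values. The array header gives their positions on build rn4, and the oligos are 60 bases long, written 5′ to 3′. The Il6 probe covers chr4:457279-458563, an interval of 1285 bases for a 60-base oligo, so it reads spliced RNA.
Il6 probe: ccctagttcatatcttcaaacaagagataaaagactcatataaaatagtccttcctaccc
The gp130 gene and Socs3 were each read by a pair of probes, and for each the probe with the lower signal, at chr2:43833273-43833332 for Il6st and chr10:107958636-107958695 for Socs3, is shown because it gives a second reading of the gene.
Il6st, second probe: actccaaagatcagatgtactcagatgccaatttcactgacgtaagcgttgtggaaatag
Socs3, second probe: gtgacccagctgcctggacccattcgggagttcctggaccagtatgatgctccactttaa
The other pair belongs to Lif and lies at chr14:84890560-84890619 and chr14:84890562-84890621. Their starts are 2 bases apart, so they share 58 bases, and within these they differ at 4 bases (in capitals). The probe of accession NM_022196 carries the first base of each substitution and that of M32748 the second, as T45A, C50T, G52T and T56C, counted from 1 at the 5′ end of the NM_022196 probe.
Lif, NM_022196: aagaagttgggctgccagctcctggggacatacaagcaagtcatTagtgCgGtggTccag
Lif, M32748: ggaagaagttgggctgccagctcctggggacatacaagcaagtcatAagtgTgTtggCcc

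The question was which transcripts of the family differ between cells on the 2 surfaces. Il6 and Il6st rose on Ta, by 4.42-fold and 2.05-fold. The other 8 members did not pass the test, which was limma's moderated test with Benjamini-Hochberg adjustment over all 19669 tested genes and a threshold of 0.05. Over all tested genes 4.11% were called, 2.65% as higher on Ta and 1.46% as lower. Among the members 2 of 10 were called as higher and 0 as lower, and limma's unadjusted p was under 0.05 in 8 (6 higher, 2 lower), against 29.9% of all tested genes (16.7% higher, 13.2% lower). Every Ta array lay above every Ti array in 4 members (Il6, Il6st, Lifr, Osmr), as in 19.5% of all genes, and below in 2 (Il6r, Il11ra1), as in 16.3%. The groups of 35.8% of all genes did not overlap. The median log2 difference, Ta minus Ti, was 0.41 over the members and 0.03 over all tested genes. All 10 members passed the filter on dim probes, which asked for 3 or more of the 6 arrays to be well above background, and 14 of their 18 probes did. The other 4 probes, of Lif, Il6r, Lifr and Osmr, were well above background on none of the arrays.

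**Figure D1:**
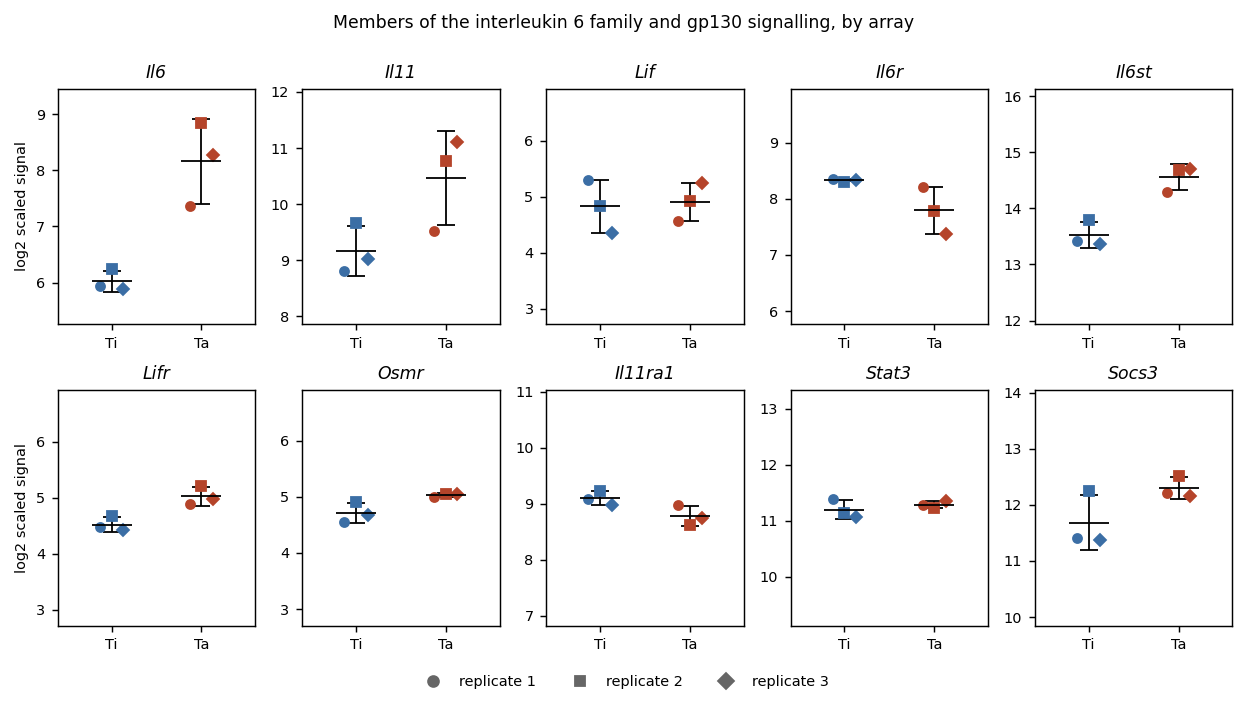
Log2 scaled signal of the 10 members on the 3 Ti arrays (blue) and the 3 Ta arrays (red), by replicate number, with bars for the mean and SD. Every panel spans the same range on the log2 scale, and Il6 and Il6st show the Ta arrays above the Ti arrays with the members' adjusted p under 0.05 (0.0451 and 0.0438 in limma).

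Among the ligands, Il6 encodes interleukin 6, the family's inflammatory cytokine. Its log2 scaled signal was 7.36, 8.85 and 8.28 on Ta replicates 1 to 3 and 5.94, 6.24 and 5.88 on Ti replicates 1 to 3. All Ta arrays were above all Ti arrays, with Ta replicate 1 the lowest of the Ta arrays and the Ta values more spread (SD 0.75) than the Ti values (SD 0.19). The difference was 2.14 ± 0.37 (log2, SE, 95% interval 1.25 to 3.03, adjusted p = 0.0451 in limma), and 1.03% of tested genes had a larger one. It grew to 2.55 without Ta replicate 1 (limma adjusted p = 0.00746) and was 2.25 without Ti replicate 2 (0.0486). When any one of Ta replicates 2 and 3 and Ti replicates 1 and 3 was left out, the difference lay between 1.80 and 2.11 and no longer passed, with limma adjusted p of 0.162, 0.134, 0.135 and 0.165 in that order; none (0) of the tested genes was then called, with 3826 to 4485 at an unadjusted p under 0.05. In RNA of whole cultures, fewer cells of a type and less RNA per cell cannot be told apart.

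Some neutrophil markers moved with Il6. Of the 9 listed, 4 were measured, and S100a8 and Camp, proteins of neutrophil granules and cytosol, rose by 2.94 ± 0.50 and 1.68 ± 0.30 (log2, SE, limma adjusted p = 0.0448 and 0.0453). Of the other 2, Mpo differed by 1.66 and Csf3r by -0.88, and neither passed (limma adjusted p = 0.0519 and 0.233). The mean level of the 4 was between 6.05 and 6.44 on Ta and between 4.62 and 5.29 on Ti, and their summed signal between 8.25 and 9.30 on Ta and between 6.92 and 7.50 on Ti (log2). S100a9, Elane, Ltf, Mmp8 and Ngp, which also define these cells, did not pass the filter on dim probes, and of these Mmp8 was well above background on 2 Ti arrays and 0 Ta arrays. The part of such cells in the Il6 result was not tested.

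Il11 encodes interleukin 11, a cytokine of stromal cells that acts on bone and blood cell formation. Its signal was 9.52, 10.77 and 11.12 on Ta and 8.81, 9.66 and 9.02 on Ti. The groups overlapped, because Ta replicate 1 lay below Ti replicate 2. The difference of 1.31 ± 0.45 (95% interval 0.23 to 2.39) did not pass the test (limma adjusted p = 0.115). Without Ta replicate 1 it was 1.78 and passed (limma adjusted p = 0.0198), in a fit that called 3225 of the 19669 tested genes. Without Ti replicate 2 it was 1.56 and did not pass (0.101).

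Lif encodes leukaemia inhibitory factor, which acts through Lifr and gp130. The probe of accession M32748 gave 4.57, 4.93 and 5.24 on Ta and 5.30, 4.84 and 4.36 on Ti. The Ta values lay within the range of the Ti values, and the difference was 0.08 ± 0.28 (95% interval -0.59 to 0.76, limma adjusted p = 0.869). The overlapping probe, with the 4 base differences printed above, gave 4.35, 4.73 and 5.06 on Ta and 4.89, 4.79 and 5.02 on Ti. Its difference was -0.19 (95% interval -0.64 to 0.27, limma adjusted p over all probes 0.541), so the pair gave opposite signs and neither passed the test.

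Of the receptor chains, gp130 itself is encoded by Il6st. Its brighter probe, at chr2:43838549-43838608, read 14.30, 14.68 and 14.71 on Ta and 13.41, 13.80 and 13.37 on Ti. The groups did not overlap, and Ti replicate 2 was the highest Ti array. The difference was 1.04 ± 0.17 (log2, SE, 95% interval 0.63 to 1.44, adjusted p = 0.0438 in limma). The second probe, whose sequence is given above, read 10.76, 11.31 and 11.24 on Ta and 9.33, 10.45 and 9.49 on Ti. It gave a 2.54-fold difference, 1.34 on the log2 scale (SE 0.32), also without overlap, and narrowly missed the threshold (limma adjusted p over all probes 0.0649). The mean of both probes differed by 1.19 (limma adjusted p = 0.0522). For the brighter probe the difference was 1.17 both without Ta replicate 1 (0.0143) and with Ti replicate 2 left out (0.0329). It lay between 0.96 and 0.98 when any one of Ta replicates 2 and 3 and Ti replicates 1 and 3 was left out, with limma adjusted p of 0.165, 0.132, 0.132 and 0.162 in that order.

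The receptor chains particular to interleukin 6 and interleukin 11 had lower values on Ta, and neither passed the test. Il6r read 8.21, 7.79 and 7.38 on Ta and 8.36, 8.31 and 8.34 on Ti. All Ta arrays were below all Ti arrays, and the Ti arrays were close together (SD 0.02). The difference was -0.54 ± 0.21 (95% interval -1.04 to -0.04, limma adjusted p = 0.143), and without Ta replicate 1 it was -0.75 and passed (0.0281). With Ti replicate 2 left out it was -0.55 and did not pass (0.192). Il11ra1 read 8.97, 8.62 and 8.75 on Ta and 9.09, 9.23 and 8.98 on Ti. The groups did not overlap, but Ta replicate 1 and Ti replicate 3 were nearly level, and the difference was -0.32 ± 0.12 (95% interval -0.62 to -0.02, limma adjusted p = 0.149). The Il11ra1 difference was -0.41 without Ta replicate 1 (0.0648) and -0.25 without Ti replicate 2 (0.243), and passed in neither case.

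Macrophage and monocyte markers moved with Il6r. Of 15 listed and measured, 14 had lower values on Ta and 0 passed the test (limma unadjusted p under 0.05 in 7 lower and 1 higher), with a median difference of -0.49. Their mean level was 10.92, 10.16 and 9.44 on Ta replicates 1 to 3 and 11.19, 11.21 and 11.27 on Ti, and their summed signal was between 15.95 and 16.81 on Ta and between 16.79 and 17.00 on Ti (log2). Ta replicates 1, 2 and 3 stood in the same order in these markers and in Il6r. The part of these cells in the Il6r values was not tested.

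The remaining signalling chains, Lifr and Osmr, were dim and somewhat higher on Ta. Lifr, the receptor chain for leukaemia inhibitory factor, read 4.88, 5.21 and 4.97 on Ta and 4.47, 4.67 and 4.42 on Ti. The groups did not overlap, and the difference of 0.50 ± 0.12 (95% interval 0.21 to 0.80) missed the threshold (limma adjusted p = 0.0671). It was 0.57 and passed without Ta replicate 1 (0.0423), and it was 0.58 and did not pass without Ti replicate 2 (0.0542). Another Lifr probe, well above background on 5 of the 6 arrays, differed by 0.22 (limma adjusted p over all probes 0.585). Osmr, which pairs with gp130 to bind oncostatin M, read 5.0, 5.05 and 5.05 on Ta and 4.56, 4.90 and 4.68 on Ti. The groups did not overlap, and the difference was 0.32 ± 0.11 (95% interval 0.06 to 0.58, limma adjusted p = 0.112). Without Ti replicate 2 the Osmr difference was 0.42 and passed (limma adjusted p = 0.0492), in a fit that called 1563 of the 19669 tested genes. Without Ta replicate 1 it was 0.34 and did not pass (0.1295).

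**Figure D2:**
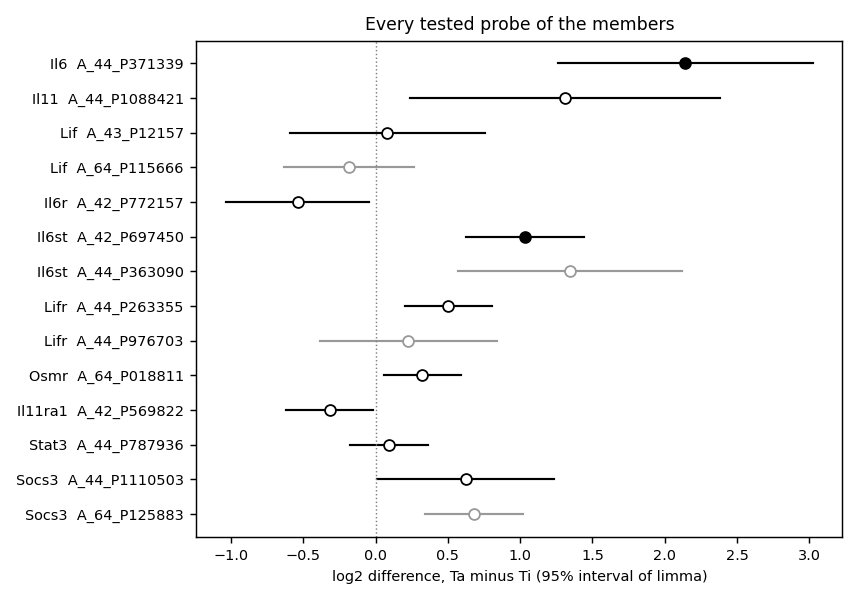
Log2 difference, Ta minus Ti, of the 14 tested probes of the members (circles) with the 95% interval from limma (lines). Black marks the probe that stands for its gene, grey the other probes, and filled circles an adjusted p over all probes under 0.05. The probes of Il6st, and likewise those of Socs3, lie on the same side of 0, and those of Lif lie on either side.

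Stat3 encodes the transcription factor that gp130 activates by phosphorylation, which an RNA measurement does not show. Its signal was 11.29, 11.22 and 11.36 on Ta and 11.39, 11.14 and 11.07 on Ti. The groups overlapped and the difference was 0.09 ± 0.11 (95% interval -0.17 to 0.36, limma adjusted p = 0.603), so a rise above 0.36 lay outside the interval.

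Socs3 encodes the inhibitor that STAT3 induces and that blocks gp130. Its brighter probe is printed at 10 spots on each array, whose log2 values had an SD between 0.03 and 0.07 within an array. Averaged over spots it read 12.22, 12.52 and 12.17 on Ta and 11.42, 12.25 and 11.37 on Ti. Ti replicate 2 lay among the Ta arrays and the other Ti arrays below them. The difference was 0.62 ± 0.25 (95% interval 0.01 to 1.24, limma adjusted p = 0.165), and without Ti replicate 2 it was 0.90 and passed (0.037). Without Ta replicate 1 it was 0.66 and did not pass (0.195). The second Socs3 probe, shown above, read 7.64, 7.97 and 7.68 on Ta and 6.92, 7.29 and 7.03 on Ti. There the groups did not overlap, and the difference of 0.68 (SE 0.14) just missed the threshold (limma adjusted p over all probes 0.0513).

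Promoter sequence was available for 8 of the 10 members from RefSeq (assembly GRCr8), and for Il6 and Il11 the window ended at the outermost start of the gene. The 250 bases before the start are shown for these 2, the ligands with the largest differences, with matches to known binding motifs in capitals. The search covered both strands for CRE (TGACGTCA), AP-1 (TGANTCA), C/EBP (TTGNNCAA) and STAT (TTCNNNGAA). NF-kB was searched in the same way by a degenerate pattern of GGG, a purine, unspecified bases, pyrimidines and CC. The Il6 window, chr4:5894576-5894825 on the minus strand, held a CRE match (bases 162 to 155 before the start), a C/EBP match (152 to 145) and an NF-kB match (68 to 59), none overlapping another.
Il6 promoter: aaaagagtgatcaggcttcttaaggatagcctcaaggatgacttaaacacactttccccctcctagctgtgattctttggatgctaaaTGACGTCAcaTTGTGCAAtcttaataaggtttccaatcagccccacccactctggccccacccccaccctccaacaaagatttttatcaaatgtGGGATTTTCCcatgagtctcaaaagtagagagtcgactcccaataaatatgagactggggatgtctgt
The Il11 window, chr1:78098372-78098621 on the plus strand, held an AP-1 match (142 to 136).
Il11 promoter: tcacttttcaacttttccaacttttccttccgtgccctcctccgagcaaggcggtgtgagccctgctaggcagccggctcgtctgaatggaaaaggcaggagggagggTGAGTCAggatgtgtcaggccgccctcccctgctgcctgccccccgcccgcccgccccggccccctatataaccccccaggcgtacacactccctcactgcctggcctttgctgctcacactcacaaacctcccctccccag
Over 33465 rat promoters of the same length, 1.59% held the CRE letters, 5.25% C/EBP, 6.33% NF-kB, 6.34% AP-1 and 7.67% STAT. Neither window held the STAT letters. A match describes the sequence, and binding was not measured.

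Transcription factors known at the Il6 promoter, with the NF-kB inhibitor gene Nfkbia, were followed as a list of 20 genes, all tested. Nfkbia and Fosl2 rose and the other 18 did not pass, with a median difference of 0.05 against 0.03 over all tested genes. Nfkbia, the NF-kB inhibitor that NF-kB itself induces, read 11.15, 11.74 and 11.63 on Ta and 10.35, 10.76 and 10.25 on Ti and rose by 1.05 ± 0.20 (limma adjusted p = 0.0489). Fosl2, an AP-1 subunit, rose by 0.85 ± 0.16 (limma adjusted p = 0.0483), and its other 2 probes differed by 0.64 and 0.82. Fosl2 is also counted among the called genes of the STAT3 target list below. The NF-kB subunits Nfkb1 and Rela, named here after their values were seen, differed by 0.15 and -0.09 and did not pass (limma adjusted p = 0.338 and 0.545).

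A second list held 14 genes of interleukin 6 receptor shedding and Il6 mRNA decay. All were tested, 1 rose and 0 fell. Zc3h12a encodes regnase-1, a nuclease that degrades Il6 mRNA. It read 8.24, 8.85 and 8.81 on Ta and 7.31, 7.46 and 7.24 on Ti, all Ta arrays above all Ti arrays, and rose by 1.30 ± 0.18 (limma adjusted p = 0.0396). Its dimmer probe differed by 0.62, with overlap between the groups. Adam10 and Adam17, the proteases that shed the interleukin 6 receptor and which were named after their values were seen, differed by 0.22 and -0.26 (limma adjusted p = 0.376 and 0.185).

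None of the other gp130 ligands passed the test. Of 9 listed, 6 were tested, with 0 called in limma (unadjusted p under 0.05 in 1 higher and 1 lower) and a median difference of 0.18. Clcf1, a cytokine that signals through the ciliary neurotrophic factor receptor, read 10.26, 10.46 and 10.35 on Ta and 9.75, 10.16 and 9.79 on Ti. All Ta arrays were above all Ti arrays, and the difference of 0.46 ± 0.13 did not pass (limma adjusted p = 0.0864). Osm (0.23), Cntf (0.30), Ctf1 (0.13) and Ebi3 (-0.17) had overlapping groups. Ctf2 and Il31 did not pass the filter on dim probes, and no probe carried the name Il27. Il31 was listed as a relative of the family, although its product does not signal through gp130.

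Of 10 other receptors of the gp130 kind, 3 were tested and 0 called in limma (0 also at an unadjusted p under 0.05): Crlf3 (-0.06), Csf3r (-0.88) and Il12rb2 (0.39), all with overlapping groups. Cntfr, Il27ra, Il31ra, Il12rb1, Il23r and Lepr did not pass the filter on dim probes, and no probe carried the name Il11ra2. The 16 Janus kinases, other STATs and adaptors gave 15 tested genes with 0 called in limma (unadjusted p under 0.05 in 1, lower) and a median of -0.04. Jak1 and Jak2, the kinases that gp130 recruits, had 95% intervals of the difference of -0.22 to 0.22 and -0.25 to 0.68 and did not pass (limma adjusted p = 0.9997 and 0.489; named after their values were seen). Of 18 other negative regulators of the pathway, 15 were tested, again with 0 called (limma unadjusted p under 0.05 in 2 higher and 4 lower) and a median of 0.04. Socs1 and Socs2 did not pass the filter on dim probes.

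Known STAT3 target genes were the longest list. Of 38 listed, 37 were tested. Of these 6 rose and 1 fell, where 2.65% and 1.46% of all tested genes did. The median difference was 0.30, and 29 genes were above 0. In 15 genes all Ta arrays were above all Ti arrays and in 5 below, against 19.5% and 16.3% of all tested genes. Many of these genes also answer to other factors, and the list was drawn up with earlier results of these data known, so its direction is not independent evidence about STAT3.

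Steap4, a metalloreductase, read 7.31, 7.86 and 8.06 on Ta and 5.49, 6.05 and 5.29 on Ti and rose by 2.13 ± 0.27 (limma adjusted p = 0.0396), whereas its dimmer probe differed by 0.0004. Hgf, hepatocyte growth factor, rose by 1.37 ± 0.27 (limma adjusted p = 0.0495), and its other probe differed by 1.54. Hp, the acute phase protein haptoglobin, read 10.32, 10.38 and 10.89 on Ta and 9.24, 9.57 and 8.87 on Ti and rose by 1.31 ± 0.23 (0.0453). Pim1, a survival kinase, rose by 1.04 ± 0.18 (0.0451). The gene that fell, named after its value was seen, was Egr1, an immediate early transcription factor, with a difference of -0.98 ± 0.17 (limma adjusted p = 0.0453). Bcl3 and Lcn2, also named after their values were seen, were higher on every Ta array and did not pass (0.59 and 3.04, limma adjusted p = 0.0531 and 0.0622). Fos, an AP-1 subunit named in the same way, was lower on every Ta array and did not pass either (-1.50, limma adjusted p = 0.0555). Without Ta replicate 1 the list had 15 calls (10 higher, 5 lower), in a fit that called 3225 of all 19669 tested genes. Without Ti replicate 2 it had 9 calls (8 higher, 1 lower), in a fit that called 1563. The list had 0 calls when any one of Ta replicates 2 and 3 and Ti replicates 1 and 3 was left out, as did all tested genes.

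**Figure D3:**
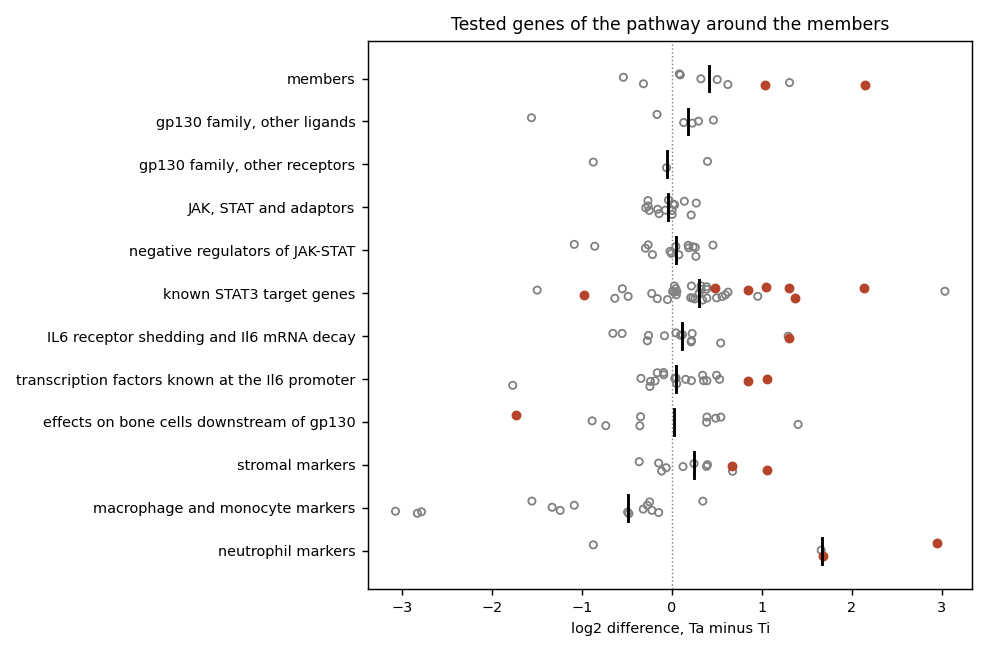
Log2 difference, Ta minus Ti, of the tested genes in each list (circles, moved apart vertically for view), with the list median as a black bar and genes with a limma adjusted p under 0.05 filled. The members' median is at 0.41, that of the STAT3 targets at 0.30 and that of the Janus kinases, STATs and adaptors at -0.04. Marker lists of stromal cells, macrophages and neutrophils stand below for comparison.

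Of 14 genes for effects on bone cells downstream of gp130, 10 were tested, 0 rose and 1 fell. Tnfrsf11b encodes osteoprotegerin, the decoy receptor that limits osteoclast formation. It read 9.65, 8.97 and 8.77 on Ta and 11.09, 10.33 and 11.17 on Ti, all Ta arrays below all Ti arrays, and fell by 1.73 (SE 0.31, limma adjusted p = 0.0458). Tnfsf11, which encodes its ligand RANKL and is induced through gp130 in osteoblast-lineage cells, did not pass the filter on dim probes, nor did Sost, Dkk1 and Bglap.

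The 5 genes whose profile over the 6 arrays was most like that of Il6, each centred on its own mean, were Egln3, Ccl3, Rn5-8s, Aqp9 and Lilrc2, with a root mean square difference from Il6 between 0.199 and 0.241 on the log2 scale. Egln3 read 8.10, 9.29 and 9.06 on Ta and 6.71, 7.37 and 6.65 on Ti, with Ta replicate 1 the lowest Ta array and Ti replicate 2 the highest Ti array, as in Il6. The likeness was taken over 6 arrays that fall into 2 groups, so it is a description with no test.

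The signs of Il6 and Il6st did not change with the processing, and their calls did. Every Ta array lay above every Ti array in both genes, so leaving out 1 array could not change the sign. The other filters, the replicate block, the trend and robust settings and the kept outlier flags returned the reported difference. The count of signs is therefore no test of the direction. Over 18 alternatives the Il6 difference kept its sign in 18 and lay between 1.54 and 2.82, and it passed the test in 11. For Il6st it lay between 0.96 and 1.26, also with 1 sign in 18, and it passed in 10.

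**Figure D4:**
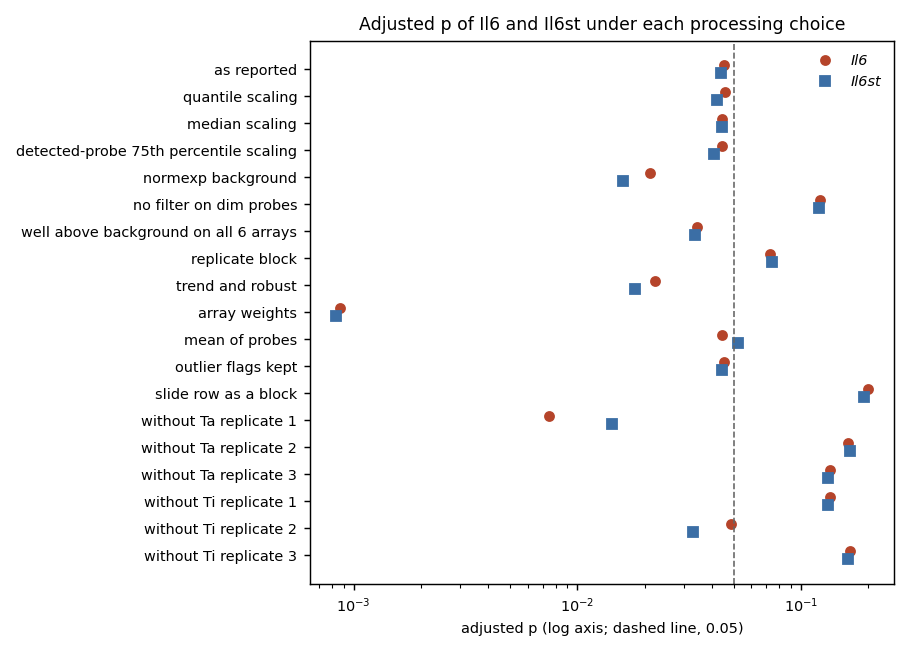
Limma adjusted p of Il6 (circles) and Il6st (squares) as reported and under 18 other choices, on a log axis with the threshold of 0.05 dashed. Both lie near the threshold as reported, at 0.0451 and 0.0438, and miss it when any one of Ta replicates 2 and 3 and Ti replicates 1 and 3 is left out.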

How the data were processed

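Total RNA of 6 cultures was measured on one-colour arrays on 1 slide (row 1 held all Ta arrays and Ti replicate 1, row 2 the other two). The authors deposited linear spot intensities, background-subtracted and detrended by Agilent Feature Extraction, per the file headers. Version 12.0 of that software and limma are named in the submitters' processing notes. The deposited value table equalled these intensities in 100% of values. Gene names were taken from the file of Ta replicate 1, since 93 names differ in those of Ta replicate 2 and Ti replicate 3, whose intensities hold at most 3 digits.

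From each array's log2 processed signal the 75th percentile over 58717 non-control spots was subtracted and the mean percentile added back. Outlier-flagged spots (0.577% to 0.841% per array) were dropped and repeated spots averaged by probe. Probes well above background on at least 3 of 6 arrays with a value on every array were kept, and the brightest probe stood for its gene (19669 genes; names updated through RefSeq for 21171 probes by accession and 9055 by symbol). The comparison used lmFit and eBayes of limma 3.58.1 in R 4.3.3, two-sided with no covariate. Probe tests were adjusted over all probes that passed. SE is limma's moderated standard error.

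The members and lists were chosen with earlier results of these data known. Named were all members, up to 4 called genes per list by size, the other gp130 ligands and receptors (1 tested ligand is not reported here), and the 5 genes most like Il6; other names are marked. Lists are described by counts and medians. On simulated data for this comparison (19669 genes, 200 changed), the test found 67% of log2 changes of 1 and 91% of log2 changes of 2, with 9 of 167 calls false and, with no change simulated, 0 calls. The simulated noise was drawn separately for each gene, with no deviation shared by the genes of an array. These rates therefore do not cover arrays that deviate as a whole, such as Ta replicate 1. The labels do not say whether replicate numbers pair the arrays. Correlations of deviations between arrays of the same number were 0.065, 0.13 and -0.18. With so few arrays in a group these cannot exclude pairing, and the reported comparison used no block. Alternatives were other scalings, background correction, filters, probe rules, model settings, slide row as a block and leaving out each array. No genome was used, so exon and UTR positions of probes are not given.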

Additional observations from a re-analysis of the deposited data

How the results depend on the processing

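As reported, 809 genes, 2 members and 2 member probes were called. Quantile, median and detected-probe scaling and outlier flags kept gave 777 to 811 genes and the members Il6 and Il6st; the split of called genes, 521 higher and 288 lower, was 416 and 363 with median scaling. Normexp background correction gave 2669 genes and 4 member probes, and eBayes with trend and robust settings 2114 and 4, with Il6 and Il6st the members called. Array weights gave 10202 genes, 8 members and 10 probes. The filter on all 6 arrays gave 1180 genes with the same 2 members. With every gene's probes averaged, 1 member (Il6) was called. With no filter on dim probes 0 genes, 0 members and 0 probes were called in limma (5828 genes with an unadjusted p under 0.05), and with slide row as a block, which sets Ta against Ti replicate 1, also 0, 0 and 0 (3846). The cause of these differences was not tested. Leaving out 1 array gave 0 to 3225 genes, 0 to 5 members and 0 to 7 probes. Each array but Ta replicate 1 and Ti replicate 2 (1563 genes, 4 members, 6 probes) brought the counts to 0, with 3826 to 4485 genes at an unadjusted p under 0.05.

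Whether the replicate numbers pair the arrays is not known, and Ta replicate 1 correlated best with Ti replicate 3 (0.18). With the replicate block 8 genes, 0 members and 0 probes were called, and the limma adjusted p was 0.0726 for Il6 and 0.074 for Il6st.

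Lif changed sign with averaged probes (-0.052), with slide row as a block (-0.39) and without Ta replicate 3 (-0.08) or Ti replicate 3 (-0.16), leaving out 1 array giving -0.16 to 0.32, as did Stat3 with slide row as a block (-0.10); neither passed the test in any setting. The other 8 members kept their sign in all 18 alternatives. In those whose groups did not overlap, leaving out 1 array could not change the sign. The STAT3 target list went from 7 calls to 16 with normexp, 12 with the filter on all 6 arrays and 0 with no filter. Without Ta replicate 1 the list of Il6 promoter factors went from 2 calls to 7. The list of shedding and decay then went from 1 to 5, and that of effects on bone cells from 1 to 3. These lists had 0 calls in the fits that called 0 genes. The number of arrays, 3 a group, limits the precision.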
